A study of Mus musculus with 18 samples.

Results

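The comparison is between the retinas of mice that received dexamethasone (DEX) and those of mice that received triamcinolone (TAA in the labels), 30 days after the injection. It uses 6 of the 18 arrays of the study, chosen by their labels: 3 DEX arrays and 3 TAA arrays of day 30. The other arrays are 3 DEX and 3 TAA arrays of day 7 and 3 arrays at each day from eyes given the vehicle, labelled BSS. All mice were male C57BL6/J, 2 months old, each drug or the vehicle was injected into the vitreous at day 0, and the design text describes the 3 retinas of a group as biological replicates. The labels give no dose, so DEX and TAA are compared here at a matched day without matched doses, and DEX minus TAA is a difference between those injections. They also do not say which retinas came from the same animal.

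Glucocorticoids act through the glucocorticoid receptor, a ligand-activated transcription factor of the nuclear receptor family. It is held in the cytoplasm by heat shock protein chaperones and immunophilins, moves to the nucleus when hormone binds, and raises genes such as Fkbp5, Tsc22d3 and Per1 while lowering many inflammatory genes. In the retina, steroids given into the vitreous are used against macular oedema and inflammation, and Müller glia, the radial glia that span the retina and carry water and potassium, are among the cells that express the receptor. Dexamethasone and triamcinolone are fluorinated derivatives of prednisolone, and dexamethasone has a methyl group on the D ring where triamcinolone has an oxygen substituent.

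Affymetrix arrays measured the RNA, and the deposited values are log2 values centred so that each probe set has a median of 0 over the 18 arrays. A value of 1 is therefore a doubling over the typical array, and no value tells how abundant a gene is. Whether rod, glial or other retinal markers are present as such cannot be read from centred values, so the label of retina could be checked only by differences between arrays. In all, 34945 probe sets name exactly 1 gene, and they stand for 18193 genes. Where values of single genes are given, they are for the probe set of the gene that varied most over the 18 arrays, and they are listed for replicates 1, 2 and 3 in that order. Differences are DEX minus TAA on the log2 scale, ± the standard error of the limma fit with 3 arrays per group, and a positive difference means higher after DEX.

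The 3 arrays of a group were unlike each other. Over all tested probe sets, DEX replicates 1 and 2 correlated at 0.69, whereas DEX replicate 3 correlated at -0.08 and -0.11 with them. TAA replicates 1 and 3 correlated at 0.26, and TAA replicate 2 at -0.02 with each of them. TAA replicate 2 had the widest spread of values of the 18 arrays (SD 0.365) and a value of -0.459 for the 3' minus 5' difference of the Actb control probe sets, whose range on the other 5 day 30 drug arrays was -0.113 to 0.137. On that array the ribosomal protein genes averaged -0.61 and the rod genes -0.22. TAA replicate 3 carried the most lens RNA of the 18 arrays, with crystallin genes averaging 3.44. The control probe sets for the 5' end and the middle of 18S ribosomal RNA lay between -0.09 and 0.66 on the DEX arrays and between -1.95 and -0.66 on the TAA arrays, with no overlap. The control for its 3' end ran the other way, with -0.38, -0.49 and -0.26 on the DEX arrays and 0.12, 0.33 and -0.13 on the TAA arrays. Their part in the differences below was not tested.

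**Figure D1:**
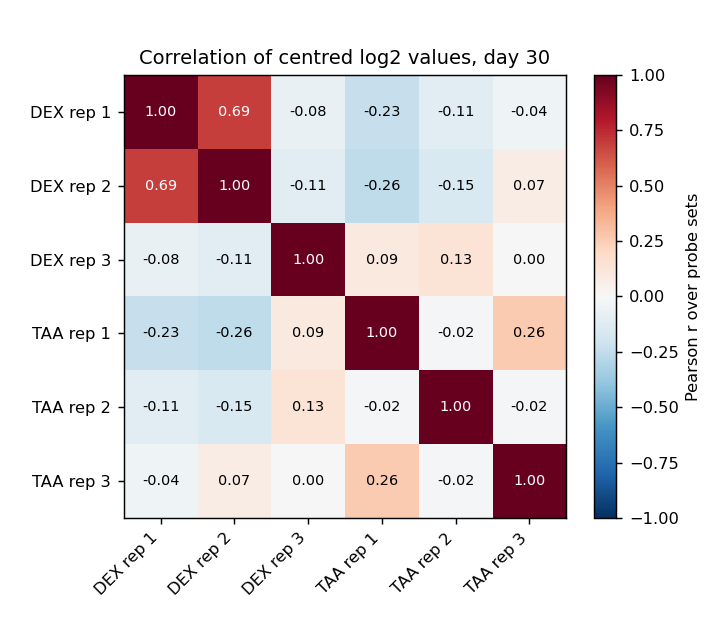
Pearson correlation of the centred log2 values between each pair of the 6 day 30 drug arrays, over 34945 probe sets, DEX arrays first. DEX replicates 1 and 2 form the one closely correlated pair (0.69), and DEX replicate 3 correlates with neither of them (-0.08 and -0.11).

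No probe set separated DEX from TAA at day 30 at an adjusted p under 0.05. By limma with Benjamini-Hochberg adjustment over 34945 probe sets, 0 passed (0% of those tested), and the smallest adjusted p was 0.0769. That value was shared by 28 probe sets, 24 of them lower and 4 higher after DEX. At an adjusted p under 0.1 there were 259 genes, 171 lower and 88 higher after DEX. At an unadjusted p under 0.05 there were 5892 probe sets (16.9%), and over genes the share was 17.4%, made up of 7.88% higher and 9.52% lower. The 3 DEX arrays lay wholly above or wholly below the 3 TAA arrays for 14.8% of genes, 5.78% above and 8.97% below. Over all genes the median difference was -0.01, and 47.7% were higher after DEX. A difference of more than 2-fold was seen in 96 genes higher and 32 lower after DEX. The standard error had a median of 0.136 over probe sets, so the 95% interval of a typical difference reached 0.286 to either side.

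The outcome of the test turned on DEX replicate 3. Without it, with TAA unchanged, the same fit called 2798 probe sets (8.01%), 1745 higher and 1053 lower after DEX. Counted as genes, 852 were higher (4.68%) and 604 lower (3.32%). Leaving out any other single day 30 drug array gave 0 or 2 probe sets. With arrays weighted by how closely each followed its group, 4356 probe sets passed, and the lowest weights of the 6 arrays went to TAA replicate 2 (0.178) and DEX replicate 3 (0.267). Values are given below on all 3 DEX arrays, and the calls made without DEX replicate 3 are named as such. They rest on 2 DEX arrays against 3 TAA arrays.

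The leading genes were picked from the 100 of smallest p on these same arrays, and only where the groups did not overlap. Their separation therefore follows from the choice. Of the 10 leading genes higher after DEX, Ywhaz had the largest difference. Ywhaz, a 14-3-3 adaptor protein that binds phosphorylated partners, stood at 1.39, 2.21 and 0.22 on the DEX arrays and at -0.59, -0.95 and -0.27 on the TAA arrays. All 3 DEX values lay above all 3 TAA values, with DEX replicate 3 nearest to TAA. The difference was 1.88 ± 0.39, with an adjusted p of 0.0911 by limma. Of the 7 probe sets of Ywhaz 4 were higher after DEX, and those other than the one shown ran from -0.28 to 1.42. Zc3h15, which encodes a zinc finger partner of the GTPase DRG1, had 1.03, 0.88 and 0.07 after DEX and -0.57, -1.49 and -0.32 after TAA, a difference of 1.45 ± 0.31. Map3k12, the dual leucine zipper kinase that signals axon injury in neurons, had 0.66, 1.28 and -0.03 after DEX against -0.13, -0.76 and -0.69 after TAA. Its groups did not overlap either, and its difference was 1.16 ± 0.26. Smc6, a subunit of a chromosome maintenance complex that acts in DNA repair, had 0.58, 0.78 and 0.00 after DEX and -0.45, -1.40 and -0.34 after TAA, a difference of 1.19 ± 0.25.

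The other leading higher genes were Prrc2c (1.44 ± 0.31), an RNA-binding protein, Nucks1 (1.22 ± 0.26), a chromatin-associated protein, Nsa2 (1.19 ± 0.23), a factor of ribosome assembly known from yeast, Shmt1 (1.10 ± 0.23), the cytosolic serine hydroxymethyltransferase of folate metabolism, and Cab39 (1.07 ± 0.22), a scaffold of the LKB1 kinase. Vmn1r58 (1.39 ± 0.30) belongs to a large family of vomeronasal receptors with similar sequences, so which family member the probes report is uncertain. Probe sets of 1 gene did not always share a side. Higher after DEX were 3 of 6 for Prrc2c, 5 of 6 for Nucks1, 4 of 6 for Smc6 and 2 of 4 for Shmt1. Adjusted p ran from 0.0769 to 0.0918 over the 20 leading genes, higher and lower. In 9 of the 10 higher genes DEX replicate 3 was the lowest DEX array, and in 10 of 10 TAA replicate 2 was the lowest TAA array.

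Col4a1 had the largest difference of the 10 leading genes lower after DEX. Col4a1, the collagen IV chain of vascular and other basement membranes, stood at -0.48, -0.20 and -0.0044 after DEX and at 0.33, 0.66 and 1.54 after TAA. The groups did not overlap, and TAA replicate 3, the array highest in lens genes, was the highest. The difference was -1.07 ± 0.23, and without that array it was -0.72. Folr1, a folate receptor, had -0.50, -0.61 and -0.58 on the DEX arrays against 0.25, 0.14 and 0.68 on the TAA arrays. The DEX values lay close together and below every TAA value, with a difference of -0.92 ± 0.17 (adjusted p = 0.0769). Dus4l, a dihydrouridine synthase that modifies transfer RNA, had -0.31, -0.49 and -0.16 after DEX and 0.53, 0.47 and 0.54 after TAA. Both groups were tight, and the difference was -0.83 ± 0.14 with a 95% interval of -1.12 to -0.54. The other 3 of its 4 probe sets were higher after DEX, by 0.01 to 0.64, and the mean of all 4 had an adjusted p of 0.972.

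Nfkbid, an atypical inhibitor protein of the NF-kappaB family, had -0.57, -0.85 and -0.04 after DEX and 0.46, 0.21 and 0.24 after TAA, a difference of -0.79 ± 0.15. Slc25a26, the mitochondrial carrier of S-adenosylmethionine, had -0.50, -0.79 and -0.45 after DEX against -0.05, 0.60 and 0.13 after TAA, a difference of -0.81 ± 0.15. In both genes the groups were separate, and DEX replicate 3 lay nearest to TAA in both. The rest were Tubg2 (-1.02 ± 0.21), a gamma-tubulin, Vax2os (-0.93 ± 0.18), a transcript from the strand opposite to Vax2, Pmp22 (-0.89 ± 0.20), a membrane protein of myelin, Tmub1 (-0.89 ± 0.17), a ubiquitin-like membrane protein, and Tpgs1 (-0.82 ± 0.17), a subunit of the enzyme that adds glutamate chains to tubulin. All 20 leading genes, higher and lower, passed in the fit without DEX replicate 3. In that fit 4.68% of all genes were called higher and 3.32% lower. The 20 leading genes were picked by small p on arrays that this fit also uses. Their passing there is therefore not a separate test of them. In 20 of 20 the mean of the 3 vehicle arrays of day 30 lay between the DEX mean and the TAA mean. Of the 14 leading genes with more than 1 probe set, 8 had every probe set on the same side.

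**Figure D2:**
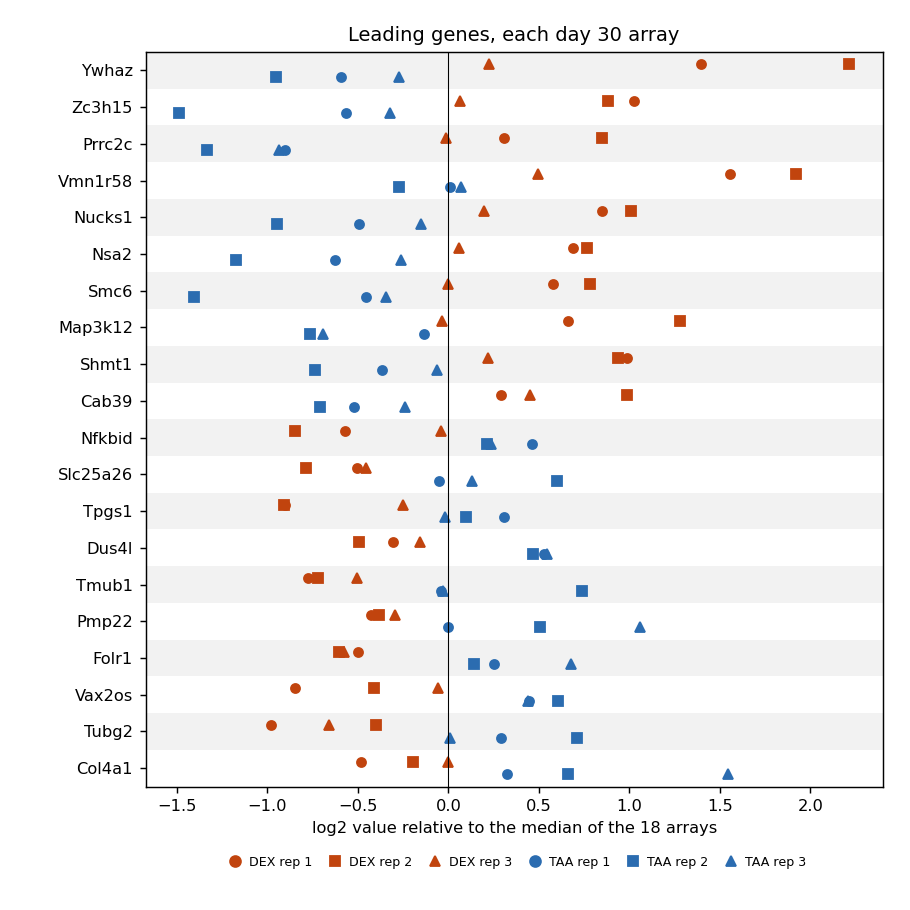
Centred log2 value (horizontal axis) of the 20 leading genes on each of the 6 day 30 arrays, with DEX above TAA in each row and a marker shape for each replicate. The genes were chosen so that the DEX and TAA points do not overlap in any row. For most genes DEX replicate 3 is the DEX array nearest to TAA.

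Genes that glucocorticoids are known to raise were mostly a little lower after DEX than after TAA. Of the 31 measured members of the response list, 21 were lower and 10 higher after DEX, with a median difference of -0.12, against -0.01 over all genes. Median values were -0.02, -0.02 and -0.07 on the DEX arrays and 0.02, 0.02 and -0.0032 on the TAA arrays. At an unadjusted p under 0.05 there were 3 lower and 1 higher member (12.9%, against 17.4% of all genes), and 0 passed after adjustment. Tsc22d3, the leucine zipper protein GILZ, stood at -0.23, -0.19 and -0.42 after DEX and at 0.01, 0.19 and -0.03 after TAA. Every DEX array lay below every TAA array, and the difference was -0.34 ± 0.13 with an adjusted p of 0.215. Glul, the glutamine synthetase of Müller glia, had -0.03, -0.13 and -0.33 after DEX against 0.16, 0.27 and 0.01 after TAA, a difference of -0.31 ± 0.11, with 0.07 for its other probe set. Mertk, a receptor kinase for the engulfment of photoreceptor tips and dead cells, went the other way without overlap, with 0.15, 0.25 and -0.04 after DEX and -0.15, -0.36 and -0.16 after TAA (0.34 ± 0.15).

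For the other well-known targets the interval of the difference held 0. Fkbp5, the immunophilin that dampens the receptor, had -0.10, -0.25 and -0.21 on the DEX arrays and -0.11, 0.46 and -0.19 on the TAA arrays. The groups overlapped, TAA replicate 2 alone stood out, and the difference of -0.24 ± 0.29 had a 95% interval of -0.85 to 0.37. The intervals were -0.38 to 0.13 for the clock gene Per1, -0.09 to 0.36 for the ion transport kinase Sgk1 and -0.38 to 0.27 for the transcription factor Zbtb16. For the metal-binding proteins Mt1 and Mt2 they were -0.82 to 0.37 and -1.26 to 0.33. Folh1, which encodes glutamate carboxypeptidase II, had 0.19, -0.03 and -0.29 after DEX and 0.07, 0.86 and 0.08 after TAA, with overlapping groups and a difference of -0.38 ± 0.26. At day 7 the same difference in Folh1 was -1.77, and the change between the days was 1.39 ± 0.36 (adjusted p = 0.192). With intervals this wide, the values do not show that the drugs act alike on these genes.

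The receptor gene itself, Nr3c1, had 0.36, 0.32 and 0.13 after DEX and -0.14, 0.18 and 0.27 after TAA, with overlap and a difference of 0.17 ± 0.13 (95% interval -0.12 to 0.45). Of the 17 measured genes for the receptor's chaperones, cofactors and steroid handling, 12 were higher after DEX and 5 lower, with a median of 0.17. Without TAA replicate 2 that median was 0.02. Hsp90aa1, the inducible form of the chaperone that holds the receptor ready for hormone, had 0.26, 0.39 and 0.12 on the DEX arrays and -0.12, -0.26 and 0.08 on the TAA arrays. The groups did not overlap, and the difference was 0.36 ± 0.10 (adjusted p = 0.113). Hspa4, a chaperone of the HSP110 family, had a difference of 0.40 ± 0.18 with overlapping groups. Abcb1b, a drug efflux pump of the cell membrane, had -0.21 ± 0.10. Without DEX replicate 3, Hsp90aa1, Hspa4 and the coactivator gene Ncoa1 passed as higher after DEX.

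Genes that mark ganglion cells, the output neurons of the retina, were among the higher ones. Of the 18 measured members 14 were higher and 4 lower after DEX, with a median of 0.24. At an unadjusted p under 0.05 there were 7 higher and 1 lower member (44.4%, against 17.4% of all genes), while 0 passed after adjustment. Stmn2, a microtubule regulator of growing axons, had 0.85, 0.82 and -0.12 on the DEX arrays against -0.16, -0.96 and -0.32 on the TAA arrays. DEX replicates 1 and 2 were far above, DEX replicate 3 only just above the highest TAA array, and the difference was 0.997 ± 0.27 (adjusted p = 0.105). Its other probe set had -0.18. The neurofilament light chain gene Nefl had 0.22, 0.26 and -0.13 after DEX and -0.46, -0.87 and -0.19 after TAA, a difference of 0.63 ± 0.17. Elavl4, a neuronal RNA-binding protein, had 0.16, 0.21 and -0.03 after DEX and -0.35, -0.56 and -0.34 after TAA, a difference of 0.53 ± 0.15. In these 3 genes the groups were separate, and TAA replicate 2 was the lowest array.

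Other ganglion cell genes depended more on which array was counted. Pou4f1, the transcription factor BRN3A that marks most ganglion cells, had 0.37, 0.50 and -0.56 after DEX and -0.19, -1.14 and -0.20 after TAA. DEX replicate 3 lay below 2 of the 3 TAA arrays, and the difference of 0.62 ± 0.28 had an adjusted p of 0.27. The neurofilament genes Nefm and Nefh and the intermediate filament gene Ina had differences of 0.52, 0.35 and 0.47, each with overlapping groups. Sncg, the synuclein enriched in ganglion cells, ran the other way, with -0.51, -0.47 and -0.31 after DEX and 0.05, -0.27 and 0.05 after TAA (-0.37 ± 0.12, no overlap). With 1 day 30 drug array left out, the list median ran from 0.17 (without DEX replicate 1) to 0.41 (without DEX replicate 3). Without DEX replicate 3, 7 of 18 members passed as higher after DEX: Pou4f1, Nefl, Nefm, Nefh, Stmn2, Ina and Elavl4. In that fit 4.68% of all genes were called higher. Rbpms and Thy1, also ganglion cell markers, had differences of 0.18 ± 0.18 and 0.29 ± 0.16 on all arrays. In tissue RNA, fewer cells of a type and less RNA per cell cannot be told apart.

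**Figure D3:**
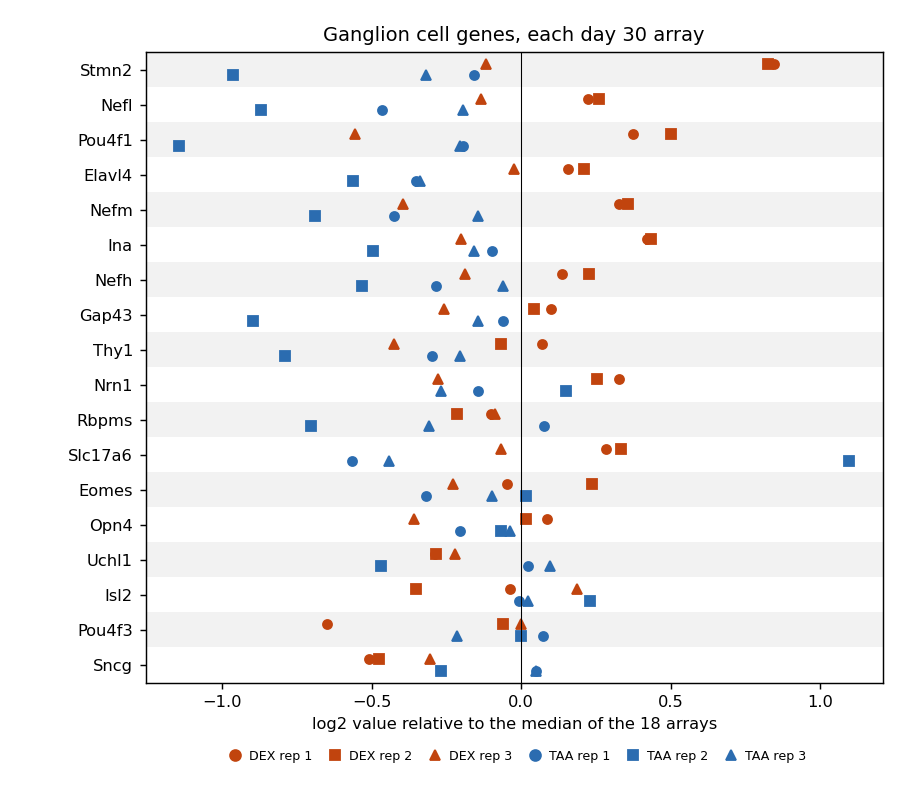
Centred log2 value (horizontal axis) of the 18 measured ganglion cell genes on each of the 6 day 30 arrays, DEX above TAA in each row, sorted by difference. DEX replicates 1 and 2 lie to the right in the upper rows, DEX replicate 3 lies near the TAA arrays, and Sncg at the bottom runs the other way.

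Synaptic genes were split. Of the 20 measured, 11 were higher and 9 lower after DEX, with a median of 0.09, and 7 had an unadjusted p under 0.05 (35.0%, against 17.4% of all genes), 4 higher and 3 lower. Snap25, a membrane fusion protein of nerve endings, had 0.41, 0.94 and 0.22 after DEX and -0.12, -1.41 and -0.06 after TAA. The groups did not overlap, TAA replicate 2 was far below the rest, and the difference was 1.05 ± 0.29, or 0.61 without that array. Ctbp2, whose longer product is the ribbon protein RIBEYE of photoreceptor synapses, had 0.77, 0.76 and 0.04 after DEX against -0.03, -0.97 and 0.03 after TAA (0.85 ± 0.24), with DEX replicate 3 barely above the highest TAA array. Stx1a, the syntaxin that pairs with Snap25, was lower on every DEX array, with -0.43, -0.62 and -0.39 after DEX and -0.11, 0.39 and -0.12 after TAA (-0.53 ± 0.14). Without DEX replicate 3, Snap25, Ctbp2, Pclo, Gria2 and Glra1 passed as higher after DEX, and Stx1a as lower.

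Photoreceptor genes had smaller median differences. Of the 20 measured rod genes 15 were higher and 5 lower after DEX, with a median of 0.11, and 9 had an unadjusted p under 0.05 (against 17.4% of all genes), 8 of them higher. Slc24a1, the sodium-calcium exchanger of the rod outer segment, had 0.28, 0.31 and -0.03 after DEX and -0.10, -0.32 and -0.03 after TAA. Rp1, a microtubule protein of the outer segment axoneme, had 0.23, 0.53 and 0.22 after DEX and -0.18, 0.19 and -0.13 after TAA. The groups were separate for both, although DEX replicate 3 and TAA replicate 3 of Slc24a1 were equal to 2 decimals, with differences of 0.33 ± 0.10 and 0.37 ± 0.12. Pde6b, a catalytic subunit of the rod phosphodiesterase, had 0.33 ± 0.11, and it and Slc24a1 passed without DEX replicate 3. The rod genes were low on TAA replicate 2, where their median was -0.32, and without that array the list median difference was 0.05. Of the 13 cone genes 9 were higher and 4 lower after DEX, with a median of 0.07, or -0.04 without TAA replicate 2, and differences of -0.38 for the transducin subunit Gnb3, 0.41 for the potassium channel subunit Kcne2 and 0.35 for the channel subunit Cngb3.

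Interneuron lists had small median differences. Bipolar cell genes had 11 of 16 members higher after DEX and 5 lower, with a median of 0.08. At an unadjusted p under 0.05 there were 1 higher and 1 lower member (12.5%, against 17.4% of all genes). Lhx4, a transcription factor of cone bipolar cells, had 0.49 ± 0.17, with -0.26 for its other probe set. Bhlhe23, needed for rod bipolar cells, had -0.39 ± 0.15, and Nyx, the leucine-rich protein nyctalopin of ON bipolar cells, 0.25 ± 0.14. Amacrine and horizontal cell genes had 11 of 19 higher and 8 lower, with a median of 0.03. For these, 4 higher and 3 lower members had an unadjusted p under 0.05 (36.8%, against 17.4% of all genes). Slc32a1, the vesicular transporter for GABA and glycine, had 0.81, 0.57 and -0.16 after DEX and -0.15, -0.81 and -0.16 after TAA, with a difference of 0.78 ± 0.25. DEX replicate 3 lay among the TAA arrays there. Onecut1, a transcription factor of horizontal cells, had 0.41 ± 0.13, and the calcium-binding protein calretinin (Calb2) had -0.36 ± 0.12. Slc32a1 passed as higher without DEX replicate 3, and Calb2 and Npy as lower.

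Müller glia genes were even, with 10 of 19 higher and 9 lower after DEX and a median of 0.02. Aqp4, the water channel of Müller end-feet, had 0.73, 0.93 and 0.26 on the DEX arrays and 0.08, -0.30 and 0.04 on the TAA arrays. Every DEX array lay above every TAA array, and the difference was 0.70 ± 0.27, with an adjusted p of 0.198 and a 95% interval of 0.14 to 1.26. The other 2 of the 3 probe sets of Aqp4 were lower after DEX, at -0.44 and -0.15, so a direction for the gene depends on the probe set, and the mean of all 3 had an adjusted p of 0.945. Kcnj10, the potassium channel Kir4.1 of the same end-feet, had 0.26 ± 0.17 with overlapping groups. Hes1, a Notch target that is kept on in glia, had -0.38 ± 0.13. Over the 12 measured genes of water and ion transport, 9 were higher and 3 lower after DEX, with a median of 0.17. Slc12a2, a sodium-potassium-chloride carrier, had 0.12, 0.24 and -0.29 after DEX and -0.67, -0.89 and -0.47 after TAA, without overlap (0.70 ± 0.24). Atp1b1, a subunit of the sodium pump, had 0.58 ± 0.22, and it passed with Aqp1 as higher without DEX replicate 3.

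Genes of reactive gliosis, the injury state of retinal glia, were mostly lower after DEX, but the DEX arrays disagreed. Of the 22 measured, 17 were lower and 5 higher, with a median of -0.33, or -0.11 without DEX replicate 1. At an unadjusted p under 0.05 there was 1 member (4.55%, against 17.4% of all genes). The list medians were -0.46, -0.51 and 0.15 on the DEX arrays and -0.19, 0.20 and -0.30 on the TAA arrays. DEX replicates 1 and 2 were the 2 lowest arrays and DEX replicate 3 lay above 2 of the 3 TAA arrays, and without it the median difference was -0.56 with 0 members passed. Gfap, the intermediate filament of reactive glia, had -1.32, -1.59 and -0.93 after DEX and -0.90, 0.13 and -0.99 after TAA. TAA replicate 2 was far above the other drug arrays, and the difference was -0.69 ± 0.40 (95% interval -1.53 to 0.15), or -0.33 without that array. The vehicle arrays of day 30 ran from -0.19 to 0.43, above all 3 DEX arrays and above TAA replicates 1 and 3. Cd44, a hyaluronan receptor of activated glia and leukocytes, had -0.45, -0.37 and -0.13 after DEX and 0.12, 0.69 and 1.09 after TAA, with no overlap (-0.95 ± 0.38). Stat3, the transcription factor of cytokine signalling in gliosis, had -0.36 ± 0.21, also without overlap. The other probe sets of Stat3 ran from -0.39 to 0.23. Cd44 was highest on TAA replicate 3, the array highest in lens genes.

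With all 6 arrays the median differences of the microglia, interferon and complement lists were below 0, and no member of them passed the test. The medians of single arrays were not all below 0. On DEX replicate 3 and TAA replicate 2 they were 0.15 and 0.05 for microglia, and 0.01 and 0.09 for complement. For the interferon list the median was 0.05 on TAA replicate 2. Microglia and leukocyte genes had 15 of 20 lower and 5 higher, with a median of -0.17 and 0 at an unadjusted p under 0.05 (17.4% of all genes). Without TAA replicate 2 that median was 0.02. Csf1r, the receptor that microglia need to survive, had -0.70, -0.61 and -0.01 after DEX and 0.01, -0.05 and -0.35 after TAA, with overlap and a difference of -0.31 ± 0.30. The microglial membrane protein Tmem119 had -0.23 ± 0.12 and the tetraspanin Cd53 -0.30 ± 0.31. At day 7 the median over the list was 0.38, of the other sign. Interferon and antigen presentation genes had 16 of 22 lower and 6 higher, with a median of -0.18, or -0.07 without TAA replicate 2. H2-Ab1, a class II chain, had -0.77, -0.47 and -0.59 after DEX against 0.03, 0.05 and 0.01 after TAA. The groups were far apart and tight, yet the error of the fit, which pools the spread within all 6 groups, gave -0.64 ± 0.30 and an adjusted p of 0.287, and the vehicle arrays ran from -0.57 to 1.40. The other 2 of the 3 probe sets of H2-Ab1 were higher after DEX, with differences of 0.08 and 0.12.

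Complement genes had 11 of 12 lower and 1 higher after DEX, with a median of -0.17, or -0.02 without TAA replicate 2. Serping1, the C1 inhibitor, had -0.62 ± 0.51, the membrane inhibitor Cd59a -0.32 ± 0.10 without overlap, and the C5a receptor C5ar1 -0.13 ± 0.14. The other probe sets of Cd59a and C5ar1 were higher after DEX, at 0.16 and 0.21. Inflammatory mediators were even, with 10 of 19 higher and 9 lower and a median of 0.0052. Rela, the p65 subunit of NF-kappaB that the glucocorticoid receptor is known to oppose, had -0.70, -0.47 and -0.21 after DEX and 0.16, -0.22 and 0.05 after TAA. TAA replicate 2 lay just below the highest DEX array, and the difference was -0.46 ± 0.13 (adjusted p = 0.108). Tnf had -0.22 ± 0.10 and the chemokine Cxcl1 -0.48 ± 0.23, and without DEX replicate 3 Rela and Cxcl1 passed as lower after DEX.

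Vascular genes leaned lower after DEX in a few members. Of the 20 genes of endothelium and the blood-retina barrier, 13 were lower and 7 higher, with a median of -0.05, and the groups did not overlap for 7 (35.0%, against 14.8% of all genes). Plvap, the diaphragm protein of leaky endothelium, had -0.34, -0.48 and -0.10 on the DEX arrays against 0.24, 0.08 and -0.02 on the TAA arrays. Slc2a1, the glucose transporter GLUT1 of the barrier, had -0.26, -0.20 and -0.41 after DEX against -0.04, 0.85 and 0.05 after TAA. Both were separate, with differences of -0.41 ± 0.11 and -0.58 ± 0.17, and without TAA replicate 2 that of Slc2a1 was -0.30. Esam, an endothelial adhesion molecule, had -0.31 ± 0.10, and it and Plvap passed as lower without DEX replicate 3.

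Among the 18 genes of angiogenesis and permeability, 8 were higher and 10 lower after DEX, with a median of -0.02. Vegfa, the main permeability factor in macular oedema, had 0.10, -0.0037 and -0.19 after DEX and -0.09, 0.61 and 0.20 after TAA, with overlap and a difference of -0.27 ± 0.14 (95% interval -0.57 to 0.03). Angpt1, the angiopoietin that stabilises vessels, had 0.38, 0.33 and -0.005 after DEX and -0.27, -0.09 and -0.37 after TAA, without overlap (0.48 ± 0.17). Angpt2, its context-dependent antagonist, had 0.44 ± 0.13 and Vegfb 0.49 ± 0.17. Angpt1 and Angpt2 passed as higher without DEX replicate 3. Pericyte and smooth muscle genes had 8 of 12 lower and 4 higher, with a median of -0.04. Rgs5, a pericyte regulator of G protein signalling, had -0.06, 0.29 and -0.10 after DEX and -0.39, -0.59 and -0.60 after TAA, without overlap (0.57 ± 0.23). The other probe sets of Rgs5 ran from -0.29 to 0.11. The muscle actin Acta2 had -0.67 ± 0.30 and Tagln -0.28 ± 0.15. Acta2 was highest on TAA replicate 3, at 1.24.

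Beside Col4a1, 2 other collagen genes were lower on every DEX array than on any TAA array. Over the 21 measured members of the extracellular matrix list 10 were higher and 11 lower, with a median of -0.01. The groups did not overlap for 5 of the 21, 4 lower after DEX and 1 higher, against 8.97% of all genes separate and lower and 5.78% separate and higher. Col5a1, a chain of fibrillar collagen V, had -0.0095, -0.36 and -0.08 after DEX and 0.47, 0.29 and 0.18 after TAA (-0.46 ± 0.12). Col6a1, a chain of the microfibrillar collagen VI, had -0.51, 0.08 and -0.12 after DEX and 0.13, 0.38 and 0.36 after TAA (-0.47 ± 0.19). Col4a1 and Col5a1 passed as lower without DEX replicate 3.

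**Figure D4:**
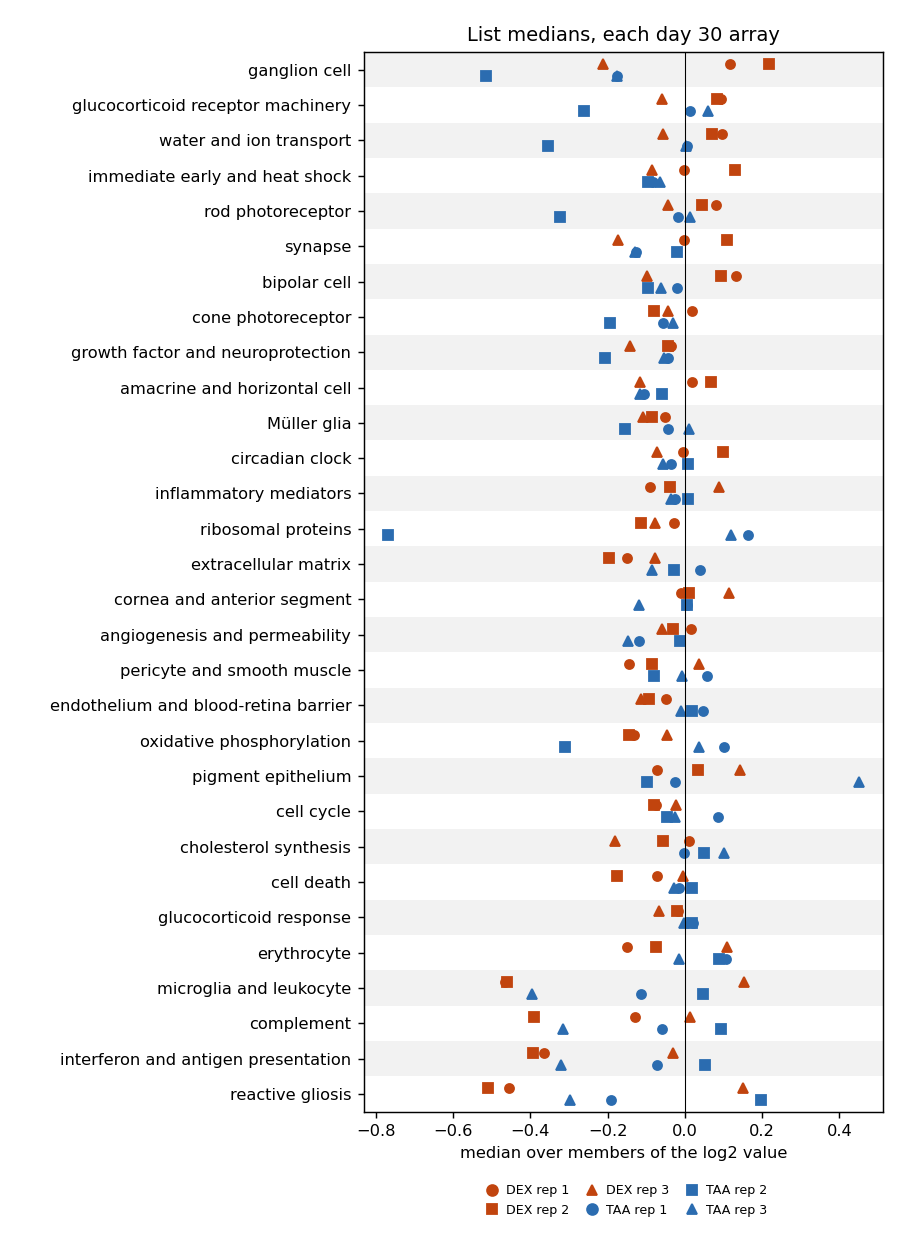
Median centred log2 value over the measured members (horizontal axis) of 30 gene lists on each of the 6 day 30 arrays, DEX above TAA in each row, sorted by the median difference. The 2 lens lists are left to the plot of lens genes. DEX replicate 3 lies away from DEX replicates 1 and 2 in the gliosis and microglia rows, and TAA replicate 2 is lowest in the ribosomal protein row at -0.77.

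The widest differences of any list were in lens genes, and they rested on 1 array. Crystallins, the structural proteins of the lens, had 11 of 14 members lower and 3 higher after DEX, with a median of -1.92, and without TAA replicate 3 the median was -0.20. Cryaa stood at -3.27, -0.31 and 0.98 on the DEX arrays and at 0.28, 0.59 and 5.70 on the TAA arrays. TAA replicate 3 was far above all others and DEX replicate 1 far below them, while the remaining 4 arrays overlapped. Crybb1 had -2.32 ± 0.96 on all arrays, Cryba4 -2.27 ± 1.01 and Crygn -0.93 ± 0.40, with adjusted p of 0.231, 0.266 and 0.249. Other lens fibre genes had 7 of 9 lower and 2 higher, with a median of -0.82, or -0.03 without TAA replicate 3. The filament gene Bfsp2 had -0.88, the lens membrane gene Lim2 -0.82 and the connexin Gja3 -1.60. Crystallin averages on the vehicle arrays of day 30 were 1.45, -0.17 and 2.10, so lens RNA varied there too.

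**Figure D5:**
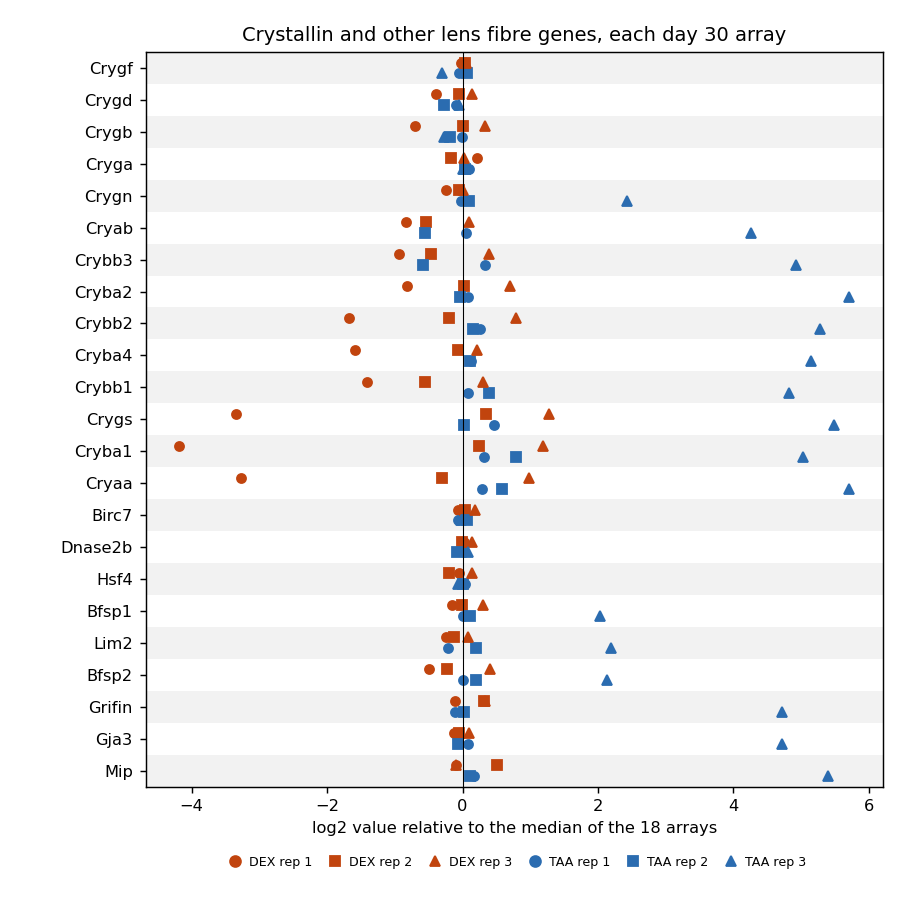
Centred log2 value (horizontal axis) of the 14 measured crystallin genes and the 9 other lens fibre genes on each of the 6 day 30 arrays, DEX above TAA in each row. TAA replicate 3 stands alone at 2.03 to 5.71 for most genes, and the other TAA arrays lie near the DEX arrays.

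Neighbouring tissues were also checked. Of 13 genes of the cornea and anterior segment 8 were lower and 5 higher after DEX, with a median of -0.01. Aldh3a1, a dehydrogenase abundant in cornea, was at 4.28 on TAA replicate 3 and between -0.22 and 0.16 on the other 5 arrays, which gave a difference of -1.58 ± 0.69. The keratins Krt12 and Krt5 of the corneal epithelium had 0.28 ± 0.12 and 0.27 ± 0.16. Pigment epithelium genes had 14 of 20 lower and 6 higher, with a median of -0.08. Ttr, a thyroxine carrier, had -0.02, 0.05 and 0.51 after DEX and -1.24, -1.60 and 0.54 after TAA, a difference of 0.95 ± 0.50. The visual cycle enzyme gene Lrat had 0.19, 0.43 and 0.12 after DEX and -1.04, -0.83 and 0.43 after TAA (0.73 ± 0.39), and the anion exchanger Slc26a7 had -0.32 ± 0.19. For Ttr and Lrat, TAA replicates 1 and 2 were far below the DEX arrays and TAA replicate 3 was as high as any of them.

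A few stress response genes were high on DEX replicates 1 and 2. Of 17 immediate early and heat shock genes 10 were higher and 7 lower after DEX, with a median of 0.17. The groups did not overlap for 0 of 17, against 14.8% of all genes. The list medians were -0.0026, 0.13 and -0.08 on the DEX arrays and -0.08, -0.10 and -0.06 on the TAA arrays. Hspa5, the chaperone BiP of the endoplasmic reticulum, had 1.35, 1.58 and -0.0022 after DEX and -0.07, 0.25 and 0.21 after TAA. Jun, a subunit of the AP-1 transcription factor, had 1.76, 1.57 and -0.61 after DEX and -0.30, -0.10 and -0.16 after TAA. In both genes DEX replicates 1 and 2 were far above every other array and DEX replicate 3 was within or below the TAA arrays. The differences were 0.85 ± 0.32 and 1.09 ± 0.55, with adjusted p of 0.198 and 0.328. The inducible chaperone genes Hspa1a and Hspa1b, a near-identical pair, had 0.39 ± 0.15 and 0.38 ± 0.17, and which of the pair the probes report is uncertain. Without DEX replicate 3, Jun, Hspa1a, Hspa1b, Hsph1 and Hspa5 passed as higher after DEX.

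The groups did not overlap for 4 of 19 clock genes (21.1%) and 4 of 17 cholesterol synthesis genes (23.5%), against 14.8% of all genes. Of these, 3 clock genes and 4 cholesterol synthesis genes were lower after DEX, and 1 clock gene was higher. Of 19 clock genes 10 were higher and 9 lower after DEX, with a median of 0.01. Rorb, a nuclear receptor of photoreceptor development and the clock, had 0.47, 0.61 and -0.03 after DEX and -0.33, -0.45 and -0.31 after TAA (0.71 ± 0.16, adjusted p = 0.0918). Its relative Rora had 0.58 ± 0.18, and the output factor Dbp had -0.56, -0.54 and -0.18 after DEX and 0.20, -0.13 and -0.07 after TAA (-0.43 ± 0.13). The groups were separate for Rorb and Dbp and overlapped for Rora, and all 3 genes passed without DEX replicate 3. The labels give no hour of collection. Cholesterol synthesis genes had 11 of 17 lower and 6 higher, with a median of -0.11.

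Fdps, the farnesyl diphosphate synthase, had -0.45, -0.35 and -0.28 after DEX and 0.13, 0.17 and 0.14 after TAA. The arrays of each drug lay close together, and the difference was -0.51 ± 0.11 with a 95% interval of -0.74 to -0.27 and an adjusted p of 0.0911. Its other probe set had 0.16. Mvd, the decarboxylase of the same pathway, had -0.48 ± 0.15 without overlap, whereas Insig1, which holds back the pathway's transcription factor, had 0.54 ± 0.18. Growth factor genes had 12 of 23 members higher and 11 lower, with a median of 0.05. The groups did not overlap for 6 of these 23, 4 higher after DEX and 2 lower (26.1%, against 14.8% of all genes). Tgfb3 had -0.48 ± 0.11, the heparin-binding factor midkine (Mdk) -0.47 ± 0.17 and Tgfb1 -0.33 ± 0.16, of which Tgfb3 and Mdk did not overlap.

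Of 14 genes named for a microRNA or its host transcript, 3 had an unadjusted p under 0.05 (17.4% of all genes did), all higher after DEX. They were singled out after their values were seen. Mir155hg, the host transcript of miR-155, a microRNA best known for promoting inflammatory responses in leukocytes, had 0.58, 0.40 and 0.37 on the DEX arrays and -0.22, -0.18 and -0.02 on the TAA arrays. The groups were well apart, and the difference was 0.59 ± 0.11 (adjusted p = 0.0769). Day 7 gave -0.04, and the change between the days was 0.63 ± 0.15 (adjusted p = 0.192). Mir99ahg had 0.49 ± 0.12 without overlap, with -0.02 for its other probe set, and Mir124-2hg had 0.38 ± 0.17 with overlap. The arrays report the host transcript and not the mature microRNA. The mature products that lie within the host gene are shown because their seed, bases 2 to 8 in capitals, is what pairs with targets, and the 2 arms carry different seeds. They are from RefSeq, build GRCm38.p6, plus strand, at chr16:84714143-84714165 and chr16:84714182-84714202.
mmu-miR-155-5p: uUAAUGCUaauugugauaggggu
mmu-miR-155-3p: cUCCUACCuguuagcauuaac

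Whether the difference between the drugs at day 30 departs from that at day 7 was tested as an interaction in the same fit. By limma 0 of 34945 probe sets passed (0%), with a smallest adjusted p of 0.165, and 5079 (14.5%) had an unadjusted p under 0.05. At day 7 itself 0 probe sets passed for DEX against TAA (0%), with a smallest adjusted p of 0.0796 and 6.28% at an unadjusted p under 0.05. Without DEX day 30 replicate 3 the interaction called 1588 probe sets. The 5 genes of smallest p were all lower after DEX at day 30. Cyb5d2, a heme-binding protein of the cytochrome b5 family, had -0.45, -0.61 and -0.33 after DEX and 0.21, 0.30 and 0.30 after TAA at day 30, a difference of -0.73 ± 0.13. At day 7 its difference was 0.44, and the change was -1.17 ± 0.18 (adjusted p = 0.165).

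The mitotic spindle protein Numa1 had -0.49 ± 0.09 at day 30 against 0.20 at day 7, and the translation release factor Gspt1 had -0.55 ± 0.15 against 0.72. The DNA repair glycosylase Mpg had -0.46 ± 0.11 against 0.37, and Mthfsd, a protein with a folate enzyme domain, had -0.51 ± 0.11 against 0.26. At day 30 the other probe sets ran from -0.52 to 0.25 for Numa1, from -0.37 to 0.13 for Gspt1 and from -0.17 to 0.13 for Mpg. These 5 genes were picked by the smallest p for the change between the days on the same arrays, which favours opposite signs and separate groups. In all 5 genes the sign was opposite at the 2 days and the groups did not overlap at day 30. Among the 20 leading genes the day 7 difference had the opposite sign in 6 of the 10 higher and in 7 of the 10 lower ones. The glucocorticoid response list had a median of -0.12 at day 30 against -0.25 at day 7, and for the ganglion cell list the medians were 0.24 and 0.03.

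Gene length moved with the difference between the drugs. Across genes, values correlated with the length of the gene at a Spearman coefficient of 0.15, 0.20 and -0.11 on the DEX arrays and -0.15, -0.01 and -0.07 on the TAA arrays. In the 3606 longest genes the median difference was 0.03, with 8.43% of genes separate and higher after DEX and 6.57% separate and lower. In the 3607 shortest genes it was -0.04, with 3.69% higher and 9.73% lower. DEX replicates 1 and 2 had the positive coefficients, and DEX replicate 3 did not. The part of gene length in the single differences above was not tested.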

How the data were processed

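The deposited values are log2 values per probe set that the authors made with RMA, per the submitters' processing notes. The RMA release, its options and later filtering are not given in the sources used here. Log base 2, with higher values for more RNA, was assumed as RMA usually gives it, since the values do not show it. All 45101 probe sets have a median within 5e-07 of 0 across the 18 arrays, so the values hold no level and no filter on background was possible. Control probe sets (64), probe sets that name several genes (932) and probe sets unnamed here (9160) were left out, which left 34945 for 18193 genes. Names came from the platform's annotation, and 34741 of these probe sets had a gene ID in the RefSeq table.

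Each probe set was fitted with limma 3.58.1 (R 4.3.3), with 1 coefficient for each of 6 groups over 18 arrays (12 residual and 5.30 prior degrees of freedom). Tests were two-sided, and p was adjusted by Benjamini-Hochberg over 34945 probe sets, with a threshold of 0.05. A total of 1 pair of compounds was compared at day 30, with its change from day 7. The fit was tested on simulated data. No scan date or batch is given.

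The members and the 32 gene lists were chosen with earlier results of these data known. The lists hold 603 genes, 542 measured. The rule named, of the 100 genes of smallest p, the 10 highest and 10 lowest without overlap, 3 members per list by smallest p, 13 genes in any case, and the 5 genes of smallest p for the change between days. For a gene with several probe sets, the one with the highest interquartile range was used. Further list members are named where they passed without DEX replicate 3 or belong to a set described, after their values were seen. Lists carry counts and medians and no test. With 3 arrays per group, the number of arrays limits the precision. The alternatives were other sets of arrays in the fit, a replicate block, array scale, array weights, robust moderation, other handling of probe sets, a variance filter and leaving out each array.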

Additional observations from a re-analysis of the deposited data

How the results depend on the processing

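Under up to 17 alternatives each, the 131 named genes kept their side of the threshold and their direction in 2063 values, passed in 139, all with array weights or without DEX day 30 replicate 3, and changed sign in 5. The sign changes were in Per1 (0.041 with array weights), C5ar1 (0.037 with the mean of all probe sets, and -0.30 to 0.054 when 1 array was left out, positive without DEX day 30 replicate 2) and Zbtb16 (-0.15 to 0.052 when 1 array was left out, positive without DEX day 30 replicate 1 and, at 0.027, without TAA day 30 replicate 3). The medians of the gene lists moved by more than 1 SD between replicates in 40 values and by less in 504. With 1 day 30 array left out, the median changed sign for the cone, amacrine and horizontal, Müller glia, pigment epithelium, cornea, pericyte, angiogenesis, microglia, inflammatory, extracellular matrix, clock, ribosomal and growth factor lists. Array weights gave 4356 calls, 2161 higher and 2195 lower after DEX, with 27.9% at an unadjusted p under 0.05, and 1775 calls and 23.5% for the change between days. Leaving out 1 array gave 0 to 2798 calls at day 30 (0 to 1745 higher, 0 to 1053 lower), with 10.2% to 24.7% at an unadjusted p under 0.05, and 0 to 1588 for the change. The 2 calls without TAA day 30 replicate 1 were lower after DEX, and without TAA day 7 replicate 3 the change had 3. The 6 arrays alone gave 9.14% at an unadjusted p under 0.05 and quantile normalization 10.99%, with 0 calls each. Testing all probe sets but controls, named or not, was added after seeing the data and gave 0 calls. The causes were not tested. The fit of the 6 arrays alone has fewer residual degrees of freedom, and the part of this in its lower share was not tested either. With the replicate number as a block there were 0 calls at day 30 (17.2% at an unadjusted p under 0.05) and 1 for the change. Same-numbered DEX and TAA arrays deviated from their group means with correlations of 0.007, -0.133 and -0.214. For arrays of different number the correlations ran from -0.072 to 0.258. With 3 arrays per group these values cannot decide whether the numbers pair the samples, and the labels do not say. With 3 arrays per group, small differences are not detectable here.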

Other observations

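Genes of energy metabolism and protein synthesis had small median differences between the drugs at day 30. Oxidative phosphorylation genes had 9 of 26 measured members higher after DEX and 17 lower, with a median difference of -0.06. Cox5b, a subunit of cytochrome c oxidase, had -0.91, -0.62 and 0.17 on the DEX arrays and 0.30, 0.61 and 0.22 on the TAA arrays. Its groups did not overlap, and the difference was -0.83 ± 0.22 (adjusted p = 0.102 by limma). Sdha, of succinate dehydrogenase, had -0.58 ± 0.17 without overlap, and Uqcrc1 -0.35 ± 0.15 with overlap. Without DEX replicate 3, Cox5b passed as lower after DEX. Ribosomal protein genes had 10 of 19 measured members higher after DEX and 9 lower, with a median of 0.00086, or -0.22 without TAA replicate 2. Rps19 had -0.35 ± 0.10 without overlap, Rpl7 0.46 ± 0.20 and Rpl4 0.33 ± 0.17.

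Cell death genes had 2 of 12 measured members higher after DEX and 10 lower, with a median of -0.12. Bcl2l11, the death-promoting protein BIM, had -0.71, -0.55 and -0.04 after DEX and -0.12, 0.45 and -0.05 after TAA. TAA replicates 1 and 3 lay below DEX replicate 3, and the difference was -0.53 ± 0.20. Mlkl, of necroptosis, had 0.24 ± 0.13 and the p53 target Bbc3 -0.21 ± 0.13. Cell cycle genes had 5 of 15 measured members higher after DEX and 10 lower, with a median of -0.10. The replication factors Mcm3 and Mcm5 had -0.35 ± 0.15 and -0.31 ± 0.15, whereas the cyclin Ccnd1 had 0.32 ± 0.20. The other probe sets of Ccnd1 were lower after DEX, at -0.13 and -0.07. Those of Mcm3 ran from -0.07 to 0.07 and those of Mcm5 from -0.44 to 0.13. Erythrocyte genes, a sign of blood in the tissue, had 2 of 5 measured members higher after DEX and 3 lower, with a median of -0.12. Alas2, of heme synthesis in red cells, had -0.32 ± 0.14, Hba-a1 -0.22 ± 0.13 and Epb42 0.11 ± 0.11.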
